A study of Mus musculus with 4 samples.

Results

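The regions described here are the accessible sites of the 4 mouse Hox clusters in B16-F10 cells, a mouse melanoma line. They were mapped by ATAC-seq, which reads out open chromatin as the DNA that a transposase can reach and tag. They were chosen by position alone: peak calls of the 4 deposited lists (GRCm39) that overlap the windows 52.11 to 52.26 Mb of chromosome 6 (HoxA), 96.06 to 96.28 Mb of chromosome 11 (HoxB), 102.78 to 102.98 Mb of chromosome 15 (HoxC) and 74.46 to 74.63 Mb of chromosome 2 (HoxD). After merging calls that overlap by at least 1 bp, 46 of 72251 union regions lay in these windows, 19 in HoxA, 13 in HoxB, 3 in HoxC and 11 in HoxD. The windows hold 38 Hox genes by the list used here.

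Of the 4 libraries, 2 are labelled wild type and 2 knockout for Ssbp4. Per the labels, cells were electroporated with Cas9 and either a mixture of guides against Ssbp4 or a control guide for an intergenic site on chromosome 2, the chromosome that also carries HoxD. The labels give neither the position of that site, nor whether the knockout is a clone or a pool, nor whether replicates came from separate cultures. Differences between replicates may therefore be technical. Values for the libraries are listed below in a fixed order, wild-type replicates 1 and 2, then knockout replicates 1 and 2.

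Hox genes encode homeodomain transcription factors that give cells their position along the body axis. In each cluster the genes stand in a row, and their order along the chromosome follows the order in which they are used from head to tail. Active clusters open over long stretches, while silent clusters are covered by Polycomb repressor complexes, with CpG-rich promoters that stay unmethylated. In skin, Hox expression differs between body sites and is part of the positional memory of the cells.

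Gene models came on an earlier assembly, GRCm38.p6, and were used for gene order and promoter sequence and not to place genes on the regions. By that table the low end of the HoxA window is the side of the anterior gene Hoxa2 and the high end that of Hoxa13, which patterns the limb tips and the genital tract. HoxB, HoxC and HoxD run the other way, from Hoxb13, Hoxc13 and Hoxd13 at the low end to Hoxb1, Hoxc4 and Hoxd1 at the high end. RefSeq promoter sequences (GRCm38.p6) matched 22 of the 38 genes, with 24 promoters. In the 250 bases before the start, Hox promoters held a median of 12.5 CpG pairs against 6.0 over 32851 mouse promoters. In all, 11 of the 24 (45.8%) met a CpG-rich rule (GC content above 50% and an observed-to-expected CpG ratio above 0.6), against 30.8% of all promoters. The matched promoters numbered 10 in HoxA, 3 in HoxB, 1 in HoxC and 10 in HoxD. To show this range, the matched promoter with the most CpG pairs in each cluster follows. Sequences run 5′ to 3′ on the gene's strand, with every CG in capitals.
Hoxa13: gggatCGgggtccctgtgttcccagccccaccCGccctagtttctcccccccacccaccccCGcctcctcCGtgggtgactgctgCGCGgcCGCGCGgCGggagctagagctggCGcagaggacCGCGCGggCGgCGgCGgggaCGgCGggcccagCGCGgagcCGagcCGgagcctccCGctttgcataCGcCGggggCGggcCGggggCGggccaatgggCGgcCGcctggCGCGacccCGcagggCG
Hoxb4: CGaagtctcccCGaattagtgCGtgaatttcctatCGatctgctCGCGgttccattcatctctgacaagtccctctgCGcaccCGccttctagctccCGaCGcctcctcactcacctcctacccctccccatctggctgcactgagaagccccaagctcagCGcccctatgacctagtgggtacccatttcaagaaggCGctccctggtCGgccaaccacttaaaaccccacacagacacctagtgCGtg
Hoxc4: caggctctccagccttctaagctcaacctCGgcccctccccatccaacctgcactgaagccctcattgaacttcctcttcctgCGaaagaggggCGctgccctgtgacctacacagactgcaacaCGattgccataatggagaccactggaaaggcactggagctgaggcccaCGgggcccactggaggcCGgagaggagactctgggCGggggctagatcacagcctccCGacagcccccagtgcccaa
Hoxd13: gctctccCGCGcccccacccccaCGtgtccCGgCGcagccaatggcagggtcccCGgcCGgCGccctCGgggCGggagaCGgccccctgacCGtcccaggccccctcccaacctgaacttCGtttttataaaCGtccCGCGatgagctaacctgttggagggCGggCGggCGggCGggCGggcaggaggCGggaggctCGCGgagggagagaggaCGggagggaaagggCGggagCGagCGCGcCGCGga
Hoxa13 and Hoxd13, the last genes of their clusters, held 35 and 31 CpG pairs, and Hoxb4 held 14. Hoxc4, the HoxC gene with a matched promoter, held 8. Whether these bases lie under a call was not analysed here.

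The libraries had between 50068 and 63080 calls on chromosomes 1 to 19, X and Y. The summit pileup, the number of extended reads over the top of a call, was recovered from the deposited fold enrichment and p-value. Over the 44000 regions called in all 4 libraries its median was 197, 231, 139 and 173. The genome-wide background pileup, taken as the 1st percentile of the local background in each list, was 14.7, 15.1, 17.2 and 17.4. Both knockout libraries thus had lower median pileups and a higher value of this background. Whether that value follows the read total of a library or the reads between peaks was not analysed. Knockout replicate 1 had the shortest list. Read totals and marker genes of melanocytes were not analysed here. The loss of Ssbp4 itself was not checked, and in bulk cells a site open in fewer cells and a site less open in every cell cannot be told apart.

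By the share of its window under calls, HoxA was the most open cluster in every library and HoxC the least open. The windows differ in length, and how much of each lies outside the genes was not analysed. Calls covered 11.8%, 11.9%, 10.5% and 12.2% of the HoxA window, a mean of 11.6% ± 0.769 (SD, n = 4). In HoxB they covered 6.67%, 6.73%, 6.30% and 6.47%. In HoxD the shares were 5.01%, 6.01%, 4.81% and 4.75%, and in HoxC 0.999%, 1.25%, 1.25% and 1.48%. The order HoxA, HoxB, HoxD, HoxC thus held within each of the 4 libraries. HoxA exceeded HoxB by 5.06 percentage points (SD 0.651, n = 4, lowest library 4.19) and HoxB exceeded HoxD by 1.40 (SD 0.462, lowest 0.722). HoxC minus HoxD was between -4.75 and -3.27 points. Each of the 6 pairs gave p = 0.125 (exact sign permutation over 4 libraries, two-sided, adjusted p also 0.125), the smallest value that 4 libraries allow. Any order kept in all 4 libraries gives this value, so the test adds nothing to the order itself.

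**Figure D1:**
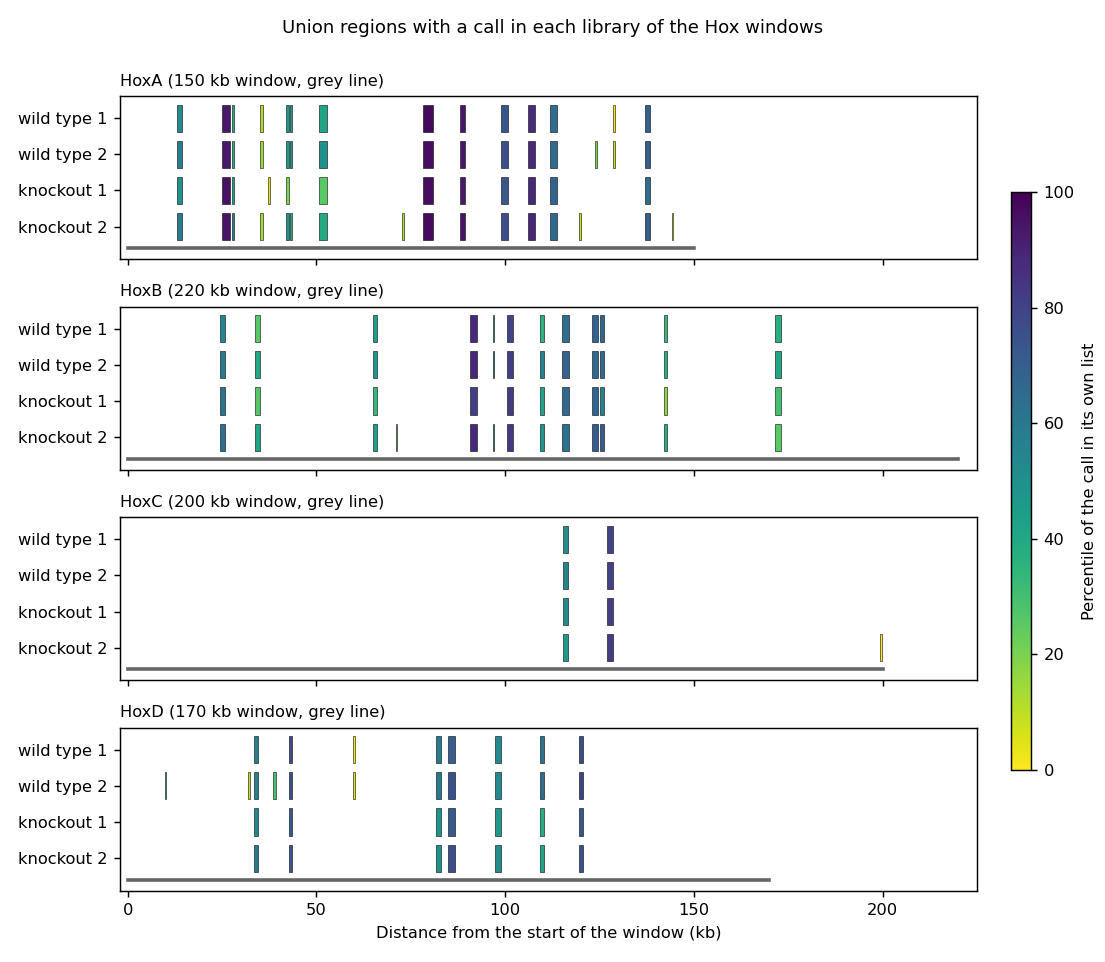
Union regions in the 4 Hox windows, drawn where a library has a call, against the distance from the start of the window in kb. Colour gives the percentile of the call in its own list by p-value (0 weakest, 100 strongest). HoxA holds 19 regions, with 1 stretch of 25.6 kb that has no region shared by all libraries, while HoxC holds 2 regions shared by all libraries and 1 weak call of knockout replicate 2.

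Against the rest of the genome, HoxA stood near the top and HoxC near the middle. When chromosomes were divided into consecutive windows of the same length, 98.9% of 18147 windows of 150 kb were covered less than HoxA. The same share was 91.4% for HoxB among windows of 220 kb, 86.2% for HoxD at 170 kb and 57.6% for HoxC at 200 kb. The median genome window was covered by 0.673% to 0.764% at these lengths. Windows without any call were counted, and these raise each of the shares above. They made up 34.0% of windows at 150 kb, 28.2% at 220 kb, 32.3% at 170 kb and 29.8% at 200 kb. Neighbouring DNA gave a different picture for HoxC than for HoxD. The stretches of equal length below and above the HoxC window were covered by 6.68% and 8.36%, with 12 and 16 regions called in all 4 libraries, so HoxC was a sparse stretch between 2 open ones. The stretches beside HoxD were covered by 0.826% and 1.16%, less than HoxD itself. Beside HoxA the values were 6.54% below and 2.51% above, and beside HoxB 6.31% and 1.20%. No test of these contrasts was made, since the windows are single loci.

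**Figure D2:**
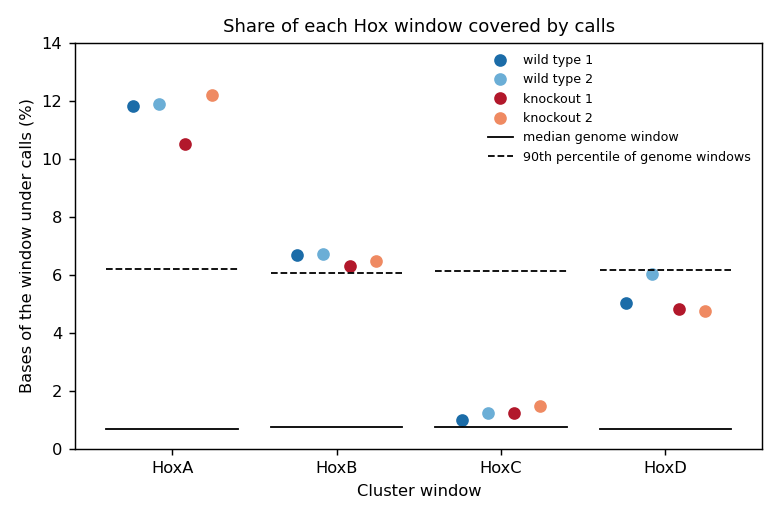
Share of each Hox window under calls (percent of bases) in the 4 libraries, 1 point per library. Solid lines mark the median and dashed lines the 90th percentile of genome windows of the same length (mean of the libraries). HoxA lies at 10.5% to 12.2%, above the 90th percentile of 6.20%, and HoxC at 0.999% to 1.48%.

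Within HoxA, 11 of 19 regions were called in all 4 libraries, spread over 125 kb with a median spacing of 8.84 kb. Most were long: their median length was 1810 bp, against 1178 bp over the 44000 shared regions. The widest and strongest region was 52188309–52190907 (2599 bp), with summit pileups of 1904, 2019, 1427 and 1716. It ranked at percentiles 97.4, 96.8, 96.6 and 97.1 of the lists, and 98.3% of all shared regions were shorter. Next came 52135131–52137247 (2117 bp), at percentiles 93.7, 93.7, 95.5 and 94.9. The region 52198072–52199457 followed, at 93.8, 93.8, 93.1 and 94.6, and had the highest fold enrichment of the window within each list (14.1, 15.4, 11.2 and 12.9, the authors' values). These 3 regions ranked at or above percentile 93.1 in every list. The longest stretch without a region shared by all libraries ran from 52162749 to 52188309, 25.6 kb, just before the widest region. Beyond 52223806, toward Hoxa13 by gene order, 1 region was shared by all 4 libraries, 52247057–52248353, at percentiles 69.3, 70.6, 64.8 and 70.2.

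The local background against which the caller scored HoxA calls was high at 3 sites, which include adjacent regions. No separate background library is among the samples, and whether the reads of these calls themselves add to that background was not analysed. At 52188309–52190907 that background was 12.9, 12.8, 9.97 and 10.5 times the genome-wide level. At 52135131–52137247 it was 11.6, 12.8, 10.0 and 10.7 times, and nearly the same at its neighbour 52137607–52138253. All 3 exceeded the local background of at least 97.0% of the shared regions. That neighbour had pileups of 357, 405, 336 and 446, all above the library medians, and folds of 2.08, 2.09, 1.93 and 2.37. Its percentiles were 38.2, 38.6, 40.5 and 55.7. The median ratio of local to genome-wide background was 3.11, 3.09, 2.77 and 2.86 in HoxA, against 1.73, 1.77, 1.51 and 1.59 over all shared regions. In HoxB the median was near the genome-wide level (1.12, 1.07, 1.10 and 1.11), and the highest values were 6.03, 6.71, 4.82 and 4.98, at 96160605–96162195.

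**Figure D3:**
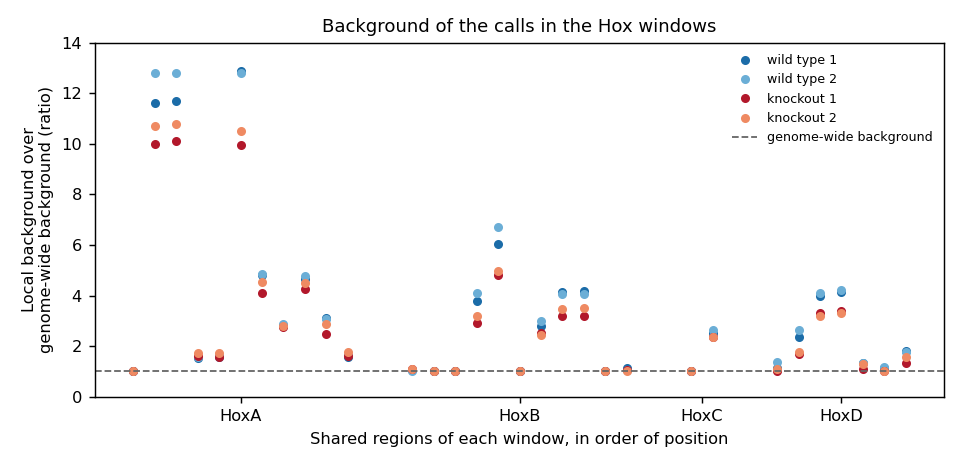
Local background of each shared Hox region over the genome-wide background of the library (ratio, linear axis), with regions in order of position and 1 point per library. The 3 HoxA regions with the highest local background lie at 9.97 to 12.9, and no HoxB, HoxC or HoxD region exceeds 6.71.

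HoxB had as many shared regions as HoxA, 11 of 13, over 149 kb. Its highest by mean percentile was 96150622–96152642 (2021 bp, the widest of the window), with pileups of 682, 823, 421 and 628 and percentiles of 88.0, 88.9, 82.0 and 88.1. The region 96160605–96162195 had pileups of 587, 720, 530 and 602. Next by percentile was 96182906–96184561, with 344, 352, 270 and 334. In knockout replicate 1 the order of the first pair by pileup was the reverse of that in the other libraries. The region 96093829–96094972, 33.8 kb from the low end, reached percentiles of 26.0, 40.6, 26.7 and 41.0. The last 46.9 kb of the window, from 96233086 on, held no call in any library.

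HoxC had 2 regions in all libraries, both in the upper part of the window and 10.5 kb apart. The stronger, 102907116–102908483 (1368 bp), had pileups of 434, 490, 383 and 427 and percentiles of 81.2, 81.2, 81.7 and 82.3. The other, 102895426–102896658, had 114, 137, 104 and 93 and stood close to the middle of each list. The 115 kb below it, 57.7% of the window, held no call in any library. The third region, 102979220–102979856 at the upper edge, was called in knockout replicate 2 alone, at percentile 0.587 with a pileup of 34. The nearest region beyond that edge, 102994104–102994831, was 14.1 kb away and was called in all 4 libraries.

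HoxD had 7 shared regions of 11, over 87.2 kb. The highest by percentile were 74579643–74580752, at percentiles 76.9, 79.4, 73.1 and 75.1, and 74502831–74503624, at 77.4, 75.5, 72.1 and 73.9. The widest, 74544892–74546762 (1871 bp), had pileups of 369, 466, 315 and 380. The highest percentile of any HoxD region in any list was 79.4. The upper 49.2 kb of the window, the side of Hoxd1 by gene order, held no call.

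Most Hox regions were called in both genotypes. In all, 31 of 46 regions (67.4%, Wilson 95% interval 53.0–79.1, counting error only) had a call in every library, against 60.9% of all union regions. There were 2 lost regions, called in both wild-type and neither knockout library (4.35%, against 7.09% of all regions), and 0 gained regions, the reverse (against 1.52%). Both shares lie near the genome-wide background. The lost regions were among the weakest calls of their lists. The HoxA region 52238670–52239103 had pileups of 32 and 44 in wild type, at percentiles 1.11 and 8.32. The HoxD region 74519642–74520349 had 33 and 40, at 1.65 and 5.33. Neither was lost with lists of equal length or a −log10 q of at least 5, settings that remove such calls.

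The other 13 regions went with single libraries. A call was missing in knockout replicate 1 alone at 3 regions (6.52%, against 6.86% of all regions), 52145193–52145829 and 52153033–52153536 in HoxA and 96156712–96157140 in HoxB. Regions called in 1 library numbered 10 (21.7%, against 16.8%), of which 5 were in knockout replicate 2, 4 in wild-type replicate 2 and 1 in knockout replicate 1. Of the 4 in wild-type replicate 2, 3 lay in HoxD, and these raised its coverage there to 6.01%. Over all windows together, calls covered 5.80% and 6.13% of bases in wild type against 5.44% and 5.90% for the knockout, and these ranges overlap. The groups overlapped in HoxA (−0.485 points, exact permutation p = 1.0) and in HoxC (0.241 points, exact permutation p = 0.667). The HoxA difference was smaller than the SD of the knockout replicates (1.24) but larger than that of the wild-type replicates (0.0561). In HoxB (−0.315 points) and HoxD (−0.729 points) the groups did not overlap, at exact permutation p = 0.333, the smallest value that 2 against 2 libraries allow. The median genome window was also lower in both knockout libraries: at 220 kb, the length of HoxB, it was covered by 0.816%, 0.843%, 0.673% and 0.717%. At 170 kb, the length of HoxD, it was covered by 0.740%, 0.773%, 0.620% and 0.645%. Relative to the wild-type level, these falls were larger than those in HoxB and HoxD.

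Within the shared regions, 1 HoxD site stood out. Summit pileups were compared by limma on the log2 scale over all 44000 shared regions, each library centred on its median, with Benjamini-Hochberg adjustment. The region 74569272–74570312 (1041 bp, 109.3 kb from the low end of the HoxD window) had pileups of 167 and 198 in the wild-type libraries, against 75 and 83 after knockout. Scaled to equal library medians these were 154, 156, 98.1 and 87.3, and the groups did not overlap. Its log2 ratio of knockout to wild type was −0.74 (SE 0.13, limma adjusted p = 0.00381, n = 2 against 2), a level 0.597 times that of wild type. Of all shared regions, 1.53% had a lower ratio. The call itself was not narrower in the knockout (866, 958, 947 and 1022 bp). Its neighbours 74557153–74558964 and 74579643–74580752 had ratios of 0.05 (SE 0.12) and −0.11 (SE 0.09), neither past the threshold. The region also passed with a −log10 q of at least 5, quantile normalization, the replicate number as a block, and percentile rank. The adjusted p by limma was 0.000341 to 0.0218 in these fits. Narrowing the windows leaves the fit unchanged, so it could not give another result. Leaving out 1 library gave log2 ratios from −0.84 to −0.66.

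**Figure D4:**
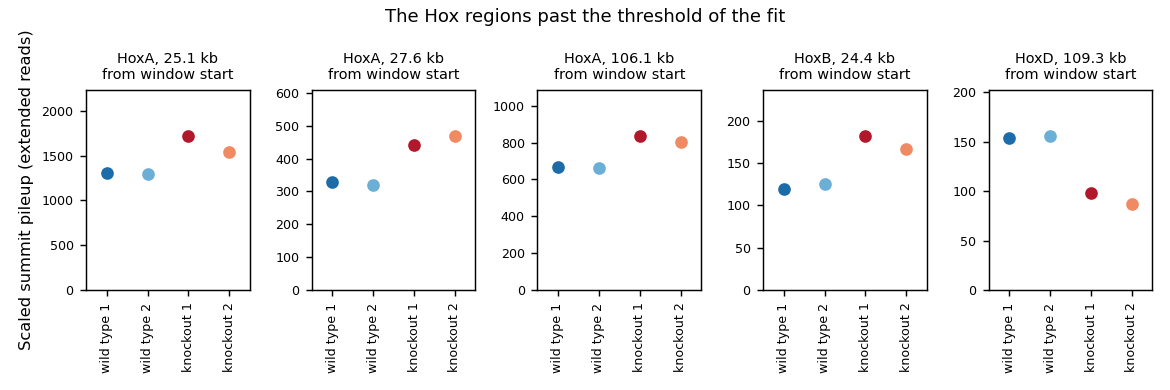
Scaled summit pileup (extended reads, equal library medians) of the 5 Hox regions past the limma threshold, 1 point per library, axes from 0. The HoxD region falls from 154 and 156 in wild type to 98.1 and 87.3 in the knockout, and the HoxA and HoxB regions are higher in both knockout libraries on this scale.

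The other 4 regions past the threshold were higher in the knockout relative to the open regions of the same library, 3 in HoxA and 1 in HoxB. Their direction depends on the scale. The first, 96084415–96085784 in HoxB, had scaled pileups of 119, 125, 182 and 167 (log2 ratio 0.51, SE 0.12, limma adjusted p = 0.0135), but raw pileups of 129, 159, 139 and 159. The HoxA neighbours 52137607–52138253 and 52135131–52137247 had log2 ratios of 0.49 (SE 0.09, limma adjusted p = 0.00544) and 0.33 (SE 0.07, limma adjusted p = 0.0134). The fourth, 52216130–52217972, had scaled pileups of 669, 661, 837 and 801 (log2 ratio 0.30, SE 0.08, limma adjusted p = 0.0205). Scaled to the genome-wide background in place of the library median, the 4 log2 ratios were −0.16, −0.19, −0.35 and −0.38 in the order named, while the HoxD region stood at −1.42. That scaling lowers every ratio by 0.68, and the median of all shared regions from 0.10 to −0.58. By percentile rank none of the 4 passed the threshold (adjusted p by limma from 0.0533 to 0.0624). Without knockout replicate 1, the adjusted p by limma was 0.073 at 96084415–96085784, 0.0734 at 52135131–52137247 and 0.0919 at 52216130–52217972. Without wild-type replicate 2 it was 0.0798 at the last of these.

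As a set, the share of Hox regions past the threshold was near the background. In all, 5 of 31 (16.1%) passed the limma threshold, against 22.1% of the 44000 shared regions. The higher calls were 4 of 31, against a background of 13.1%, and the lower calls 1 of 31, against 8.97%. The median log2 ratio of the 31 was 0.13, close to the 0.10 of all shared regions. By cluster it was 0.23 in HoxA (11 regions), 0.08 in HoxB (11), 0.19 in HoxC (2) and −0.11 in HoxD (7). Over the 4 pairs of a knockout with a wild-type library, the HoxA median ranged from 0.21 to 0.25 and the HoxD median from −0.12 to 0.03. The median of all shared regions ranged from 0.08 to 0.10 over those pairs, so HoxA lay above it and HoxD below it in each. The pairs share libraries and are not independent. How the cluster medians compare with the rest of their own chromosomes was not analysed here. Scaled pileups were higher in both knockout libraries than in both wild-type libraries at 9 of 11 HoxA, 5 of 11 HoxB, 1 of 2 HoxC and 2 of 7 HoxD regions. That is 17 of 31 (54.8%), against 44.6% of all shared regions. They were lower in both at 3 of 31 (9.68%), all in HoxD, against 21.9%. The 2 HoxC regions had ratios of 0.11 (SE 0.16, limma adjusted p = 0.624) and, at 102907116–102908483, 0.27 (SE 0.09, limma adjusted p = 0.0567). Relative to the genome-wide background the medians were −0.45, −0.59, −0.48 and −0.78 in HoxA, HoxB, HoxC and HoxD, with the same distance from the genome median of −0.58.

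**Figure D5:**
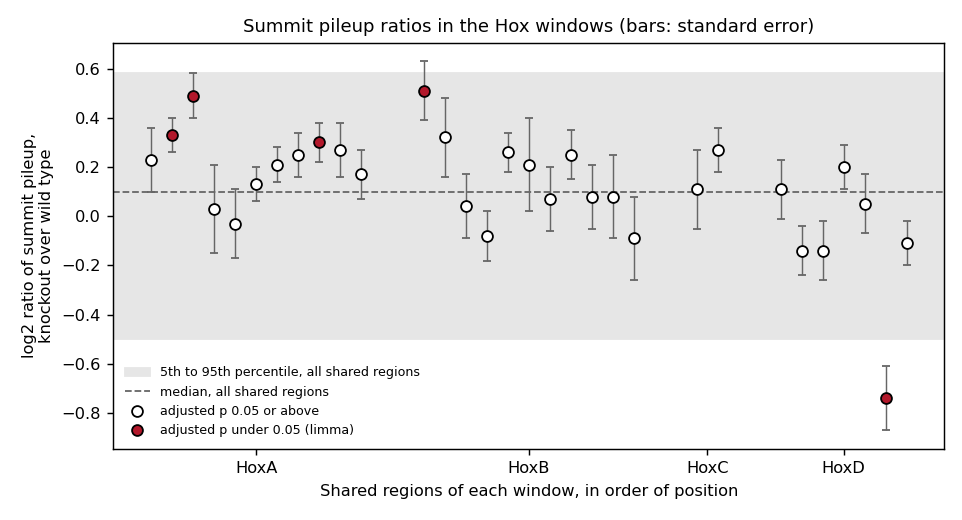
Log2 ratio of summit pileup, knockout over wild type, for the 31 shared Hox regions in order of position, with standard errors from limma. Grey spans the 5th to the 95th percentile of all 44000 shared regions and the dashed line is their median of 0.10. HoxA regions lie mostly above that line, and 1 HoxD region at −0.74 lies below the grey band.

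Call length was compared without a test. Both knockout calls were shorter than both wild-type calls at 11 of 31 regions (35.5%, against 30.2% of all shared regions) and longer at 4 (12.9%, against 15.1%), shares near the background. The clearest was 96093829–96094972 in HoxB, with calls of 1048, 1144, 668 and 687 bp, a log2 length ratio of −0.69 that 2.45% of shared regions fell below. Its raw pileups were 64, 95, 60 and 83, and those scaled to equal library medians 59.1, 74.8, 78.5 and 87.3. The direction at its summit depends on the scale, with a log2 ratio of −0.36 when scaled to the genome-wide background. At 52160820–52162749 in HoxA the call of knockout replicate 1 was 914 bp long and the others 1842, 1924 and 1868 bp, so that difference came from 1 library. At 96231584–96233086 in HoxB the call was split in knockout replicate 2 alone, where the stronger piece was 624 bp long.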

How the data were processed

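ATAC-seq was run on 4 libraries of B16-F10 cells, 2 wild type and 2 Ssbp4 knockout. The authors called peaks in each library, not on pooled reads, with MACS2 on GRCm39, per the submitters' processing notes. No source used here names duplicate filtering or a shift for the transposase. The authors deposited, for each call, a fold enrichment ratio at the summit, a −log10 p-value, a −log10 q-value, the summit position and a display score that was not used. The lists reach down to a −log10 q of 1.30 to 1.33.

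Positions were made 1-based, and calls overlapping by at least 1 bp were merged. Summit pileup and local background were solved from the deposited fold, taken as a ratio of both after adding 1 to each, and the Poisson p-value. Pileups came out within 0.05 of a whole number for 100.0% of calls. The genome-wide background is the 1st percentile of the local background in each list. Pileups depend on the length to which reads were extended (shortest call 307 to 380 bp). Where a library had several calls in a region, the one with the highest −log10 p was used. Regions called in all 4 libraries were fitted with limma 3.58.1 (lmFit, eBayes with trend, R 4.3.3) on log2 pileup centred on the library median. The threshold was an adjusted p of 0.05, and the scripts were tested on simulated data. These tests condition on a call in every library.

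The Hox windows and the lists were chosen with earlier results of these data known. Named regions are, per window, the 3 highest by mean percentile, the widest, those with the highest and lowest ratio, and all lost, gained or limma-called regions. Other regions named were chosen after their values were seen, as were the comparisons of local background, call length, summits and flanking stretches. Genes could not be placed on regions, since the gene table is of another build, so lists of Hox cofactors and melanocyte markers were not analysed here.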

Additional observations from a re-analysis of the deposited data

How the results depend on the processing

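Coverage kept its order, HoxA, HoxB, HoxD, HoxC, in every alternative run: with windows narrowed by 20 kb at both ends it was 13.8%, 7.99%, 6.65% and 1.46%. Lost regions numbered 0 with a −log10 q of at least 5 and 0 with lists of equal length. Leaving out 1 library gave 2 to 6 lost and 0 to 5 gained regions, since fewer libraries define them. Regions past the limma threshold numbered 2 to 8 when a library was left out, with 2 without knockout replicate 1 (9.29% of all regions shared in that fit passed) and 8 without knockout replicate 2 (19.6%). In those fits the remaining library of a genotype is assumed to vary like the other group. By percentile rank they numbered 2 (8.83% of all shared regions passed). Scaled to the background, an alternative chosen after seeing the data, they numbered 18 of 31, all lower, where 69.0% of all shared regions passed. The median log2 ratio of all Hox regions was 0.11 with narrowed windows, 0.11 with quantile normalization and −0.54 scaled to the background, and 2.01 percentile points by rank. Leaving out a library gave 0.13 to 0.17. The HoxA median was 0.25 with narrowed windows, 0.19 with quantile normalization, 0.19 to 0.23 with a library left out and −0.45 scaled to the background. HoxB gave 0.08 to 0.24 with a library left out and −0.59 scaled to the background. HoxC gave 0.03 to 0.35 with a library left out and −0.48 scaled to the background. HoxD gave −0.12 to −0.01 with a library left out and −0.78 scaled to the background. By rank of the −log10 p, HoxA, HoxB, HoxC and HoxD moved by 2.76, 2.92, 2.90 and −0.23 percentile points. The SD over pairs of a knockout with a wild-type library was 0.655, 3.013, 4.855 and 1.973 points. The median of all shared regions moved by 0.41 points. Only in HoxA was the shift larger than its SD. Among single regions not past the threshold, the ratio of 52160820–52162749 was 0.06 without wild-type replicate 2 and 0.04 without knockout replicate 1. That of 102895426–102896658 was −0.13 without knockout replicate 1, and that of 96231584–96233086 was −0.33 without knockout replicate 1 and 0.13 without knockout replicate 2. The cause of these shifts was not tested. The labels give both genotypes the same replicate numbers, but nothing says that a number marks a shared culture or day. The correlation of replicate 1 minus replicate 2 between genotypes was 0.17 across 44000 regions. With the replicate number as a block, 10 Hox regions passed (33.5% of all shared regions did), and 102907116–102908483 had an adjusted p by limma of 0.0211. It was also past the threshold without knockout replicate 2 (0.0394).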

Other observations

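Of the 31 shared Hox regions, 7 (22.6%) had the summit on the same base in every library, against 7.64% of all 44000 shared regions, and 26 (83.9%) had all summits within 100 bases, against 75.7%. The 7 include the HoxA pair 52135131–52137247 and 52137607–52138253, the HoxB region 96150622–96152642, and the HoxC region 102895426–102896658. The largest spread was 723 bp, at 96174956–96176814 in HoxB, a region 1859 bp long. No test was made.

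Length and rank went apart at some sites. In HoxD, 74502831–74503624 was 794 bp long, against a median of 1178 bp over all shared regions, while it ranked at 77.4, 75.5, 72.1 and 73.9 in the lists. In HoxA, 52160820–52162749 was 1930 bp long and ranked at 40.8, 49.4, 25.6 and 39.1.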
